A study of Mus musculus with 18 samples.

Results

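Cyclin D1, its kinase partner Cdk4, the inhibitors that hold that kinase back, the retinoblastoma protein and the p53 antagonist Mdm2 were examined in ERBB2-driven mouse mammary tumours. Probe sets were taken whose platform annotation gives 1 of 10 gene symbols and no other gene, and where a gene had several the brightest was kept. Of the 10 genes, 8 were measured this way (Ccnd1, Cdk4, Cdkn1b, Cdkn2a, Cdkn2b, Cdkn2c, Mdm2 and Rb1), out of 19938 genes in all. The single probe set naming Cdkn1a, which encodes p21, is shared with a second gene and gave no value, and Trp53 was not analysed here.

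The animals carried the transgene of FVB/N-Tg(MMTVneu)202Mul/J, in which the mouse mammary tumour virus promoter drives the ErbB2 (neu) proto-oncogene in mammary epithelium, so every group, the controls included, was ERBB2-positive. Snai2, a Snail family transcriptional repressor, was either intact (WT) or inactivated by the germline allele of B6;129S1-Snai2tm2Grid/J (KO), so that strain background could accompany genotype. Tumours came from mice that had borne litters (parous) or had not (nulliparous), with or without metastasis. There were 4 WT nulliparous and 4 WT parous tumours with metastasis, 1 KO nulliparous tumour and 3 KO parous arrays with metastasis, and 3 KO nulliparous and 3 KO parous tumours without it. No WT tumour lacked metastasis, so the study offers no comparison of metastasis within WT, and the age of the mice was not given.

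Total RNA of each tumour was hybridised to 1 whole-transcript array, and the values are log2 expression, on which a difference of 1 is a doubling. Array medians differed little, with a highest value of 7.67. Replicates 2 and 3 of the KO parous tumours with metastasis were close to identical (SD of their difference 0.14, and 0.288 for the pair ranked after them among the 153 possible), so they were averaged and counted as 1 sample, which leaves 17 samples. Snai2 itself, the targeted gene, was dim in both genotypes, at 6.28 to 6.79 in the KO samples and 6.68 to 7.09 in the WT tumours. The 2 ranges overlapped (additive fit -0.32, SE 0.12, limma adjusted p = 0.999), and whether the probe set lies in the deleted part of the gene is not known, so the gene checks the labels only weakly. The luminal marker list that includes Krt8, Krt18 and Epcam averaged 10.59 to 11.24 in the 17 samples.

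Cyclin D1 binds Cdk4 or Cdk6 and starts the phosphorylation of the retinoblastoma protein, which then releases E2F factors and lets the cell enter S phase. The INK4 proteins p16, p15 and p18 (Cdkn2a, Cdkn2b and Cdkn2c) block Cdk4 and Cdk6, p27 (Cdkn1b) blocks Cdk2 complexes and also binds cyclin D complexes, and the second product of Cdkn2a, Arf, restrains Mdm2, the ubiquitin ligase that degrades p53. In the mammary gland, cyclin D1 is required for lobuloalveolar growth in pregnancy and for tumours started by ErbB2, and p27 dosage modifies those tumours in mice.

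To show the regulatory sequence of the member that differed most clearly, and of the one whose promoter held the most matches to the motifs searched, the 250 bases upstream of the annotated start are printed for Cdkn1b and Cdk4, from RefSeq on build GRCm38.p6, 5′ to 3′. The Cdkn1b stretch is chr6:134920151-134920400 and the Cdk4 stretch is chr10:127063285-127063534, both on the plus strand. Capitals mark CACGTG, the E-box core bound by Myc and its partners.
Cdkn1b: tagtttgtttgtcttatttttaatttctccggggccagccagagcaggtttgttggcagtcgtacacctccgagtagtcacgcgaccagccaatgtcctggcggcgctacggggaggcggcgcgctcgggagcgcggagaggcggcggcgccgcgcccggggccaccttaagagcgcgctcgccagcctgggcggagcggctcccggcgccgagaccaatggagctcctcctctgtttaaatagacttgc
Cdk4: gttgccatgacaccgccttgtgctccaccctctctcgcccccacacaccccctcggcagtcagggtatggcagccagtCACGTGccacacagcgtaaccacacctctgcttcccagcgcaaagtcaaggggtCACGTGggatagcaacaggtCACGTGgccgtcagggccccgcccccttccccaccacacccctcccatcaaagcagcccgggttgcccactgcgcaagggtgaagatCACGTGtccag
The searched motifs, on both strands, were the E-box core above, the Snail family E-box core CAGGTG, the FOXO factor core GTAAACA and the E2F core GGCGGGAA. They occur in 6.02%, 17.2%, 3.17% and 1.86% of 32851 upstream windows of this length. Of the 8 members 6 had an entry, with 8 windows among them. The Cdk4 window held CACGTG 4 times, starting 172, 118, 98 and 11 bases before the gene's start and not overlapping, and the Mdm2 window held 1 FOXO core at 153 bases. The windows of Cdkn1b, Cdkn2a, Cdkn2b and Cdkn2c held none of the 4 motifs in these letters. A match is a description of the sequence and was not tied to binding in these tumours.

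Of the 8 genes, Cdkn1b, encoding p27, was the member that passed the test in the comparison of parity among WT tumours, and the other 7 did not. In the WT parous tumours Cdkn1b read 11.28, 11.37, 11.36 and 11.42, and in the WT nulliparous tumours 10.84, 10.69, 10.98 and 10.92. Every parous tumour lay above every nulliparous one; of the 8 members this separation of the groups, in either direction, held for Cdkn1b and Rb1, and of all genes for 12.6%. The parous mean was 11.36 ± 0.06 (SD, n = 4) and the nulliparous mean 10.86 ± 0.12 (SD, n = 4), a difference of 0.50 (SE 0.09, 95% interval 0.31 to 0.69) or 1.41-fold. Its limma adjusted p over all genes was 0.0166, the 91st smallest p. In this comparison 478 of 19938 genes passed, which is 2.4% (0.542% higher and 1.86% lower in parous tumours), so 1 of 8 members is to be read against about that share.

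A second probe set annotated to Cdkn1b alone was not used in the main test. It entered the alternative settings that averaged a gene's probe sets or tested every probe set. This second probe set was dimmer but moved with the first over the 17 samples (Pearson r 0.90, a description of 2 probe sets read on the same arrays). It read 7.95, 8.28, 8.01 and 8.20 in the WT parous tumours and 7.42, 7.09, 7.53 and 7.40 in the nulliparous ones. These groups were again apart, by 0.75. The 20 nearest expressed genes on chromosome 6 had a median of -0.02 in the same comparison, with 9 above 0 and none higher than 0.26.

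**Figure D1:**
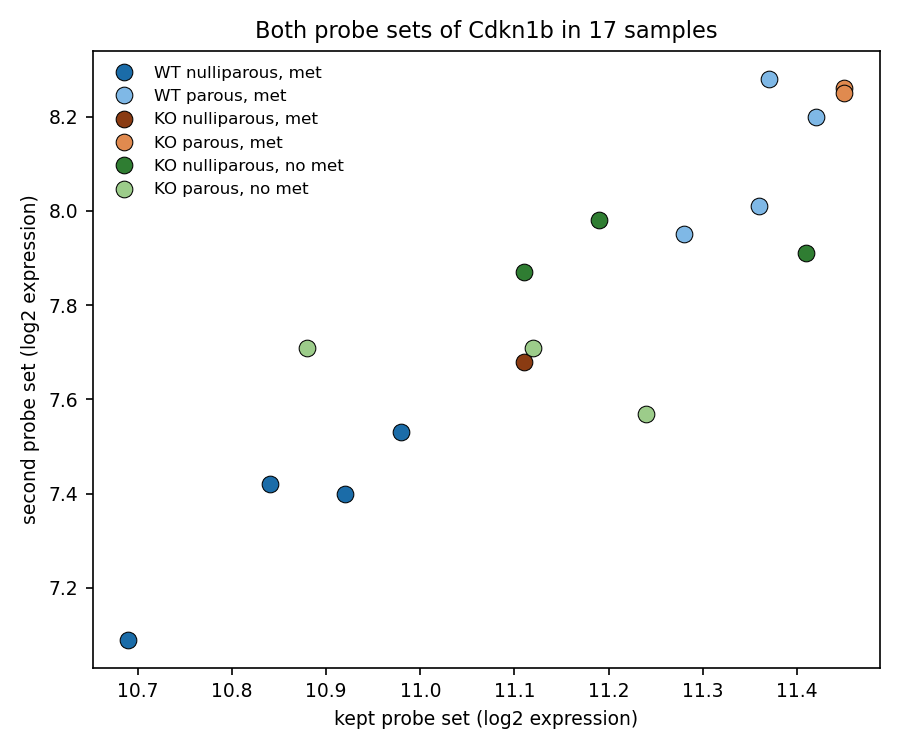
Log2 expression of Cdkn1b by its brighter probe set (horizontal axis) and by its second probe set (vertical axis), 1 point per sample, coloured by group. The 4 WT nulliparous tumours sit at the lower left (10.69 to 10.98). The 4 WT parous tumours with both KO parous samples with metastasis sit at the upper right (11.28 to 11.45). KO nulliparous no-metastasis replicate 1 (11.41, and 7.91 by the second probe set) lies close to the latter.

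Markers of other cell types mostly lay below 0 in the same comparison, parous against nulliparous WT tumours. This held for all 14 T and NK cell markers measured, all 9 B cell, all 11 macrophage, all 12 fibroblast and all 12 skeletal muscle markers. It also held for 11 of 12 endothelial and 10 of 11 adipocyte markers. Among all these lists, 2 T and NK cell markers and 1 adipocyte marker passed the test, where 2.4% of all genes did. The T and NK cell list averaged 6.34 to 6.48 in the parous and 6.53 to 7.56 in the nulliparous tumours, the macrophage list 8.70 to 9.68 and 9.27 to 9.70, and the fibroblast list 7.94 to 9.89 and 9.28 to 10.2. The skeletal muscle list averaged 10.8 in WT nulliparous replicate 1, 7.09 to 7.87 in the other nulliparous tumours and 7.15 to 8.27 in the parous ones. Its direction thus leaned on 1 tumour. The adipocyte list was also highest in that tumour (8.9), against 7.72 to 7.99 in the other nulliparous and 7.19 to 8.02 in the parous tumours. The luminal list averaged 10.88 ± 0.06 (SD, n = 4) in the parous and 10.94 ± 0.13 (SD, n = 4) in the nulliparous tumours. With the mean of the non-epithelial lists as a covariate, the Cdkn1b difference was 0.43 with a limma adjusted p of 0.196. In bulk tumours, fewer cells of a type and less RNA per cell cannot be told apart.

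The Cdkn1b call also depended on single tumours. The difference stayed between 0.43 and 0.63 over 29 alternative settings and passed in 24 of them. Besides the covariate, it failed without WT parous replicate 3 (limma adjusted p = 0.0556), without WT parous replicate 4 (0.0604), without WT nulliparous replicate 1 (0.0582) and without WT nulliparous replicate 4 (0.0547).

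In the KO tumours without metastasis, parity went with no call in Cdkn1b. The parous tumours read 11.24, 10.88 and 11.12 and the nulliparous tumours 11.41, 11.19 and 11.11. By this brighter probe set the 2 groups overlapped, and the difference was -0.16 (SE 0.10, 95% interval -0.38 to 0.06). The second, dimmer probe set gave -0.26, and by it the 2 groups did not overlap. It read 7.57, 7.71 and 7.71 in the parous and 7.91, 7.98 and 7.87 in the nulliparous tumours. The share of all genes with such a separation was not computed for this comparison. No gene passed in this comparison (0% of 19938, lowest adjusted p 1, with 655 genes at an unadjusted p under 0.05), so none of the 8 members could be read against other calls.

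The difference between the KO and WT parity contrasts was tested directly and was -0.66 for Cdkn1b (SE 0.13, 95% interval -0.95 to -0.37). Its unadjusted p of 0.000286 was the 16th smallest of all genes, but the limma adjusted p was 0.268, above the threshold, as for every gene (0% called, 1922 genes at an unadjusted p under 0.05). Genotype and metastasis status change together between these 2 contrasts and cannot be told apart. Over the 29 alternative settings the value lay between -0.84 and -0.56 and the adjusted p between 0.132 and 0.938.

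Both KO parous samples with metastasis read 11.45 for Cdkn1b, the highest values of all groups, and the single KO nulliparous tumour with metastasis read 11.11. Ordered by mean, the groups ran from WT nulliparous (10.86) through KO parous without metastasis (11.08 ± 0.18, SD, n = 3), the single KO nulliparous tumour with metastasis (11.11), KO nulliparous without metastasis (11.24 ± 0.15, SD, n = 3) and WT parous (11.36) to KO parous with metastasis (11.45). By the brighter probe set, ranges overlapped between WT nulliparous and KO parous without metastasis, and between the 2 KO groups without metastasis. They also overlapped between KO nulliparous without metastasis and WT parous. Within parous KO mice, tumours with metastasis were 0.37 above those without (SE 0.11, 95% interval 0.13 to 0.62) at a limma adjusted p of 0.967. The groups did not overlap, as for 14.4% of all genes. No gene passed there (0% called, 805 at an unadjusted p under 0.05). Across any of the 6 groups, the F statistic of Cdkn1b was 9.39 with a limma adjusted p of 0.0793, where 87 genes (0.436%) passed. Over 28 alternative settings the limma adjusted p of this F test lay between 0.012 and 0.485, and 4 of the 28 passed. Those 4 were the mean of both probe sets (0.012), array weights (0.0157), the near-identical arrays kept apart (0.0292) and leaving out KO parous no-metastasis replicate 2 (0.0378). With the non-epithelial covariate it was 0.485, and with the replicate block 0.181.

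**Figure D2:**
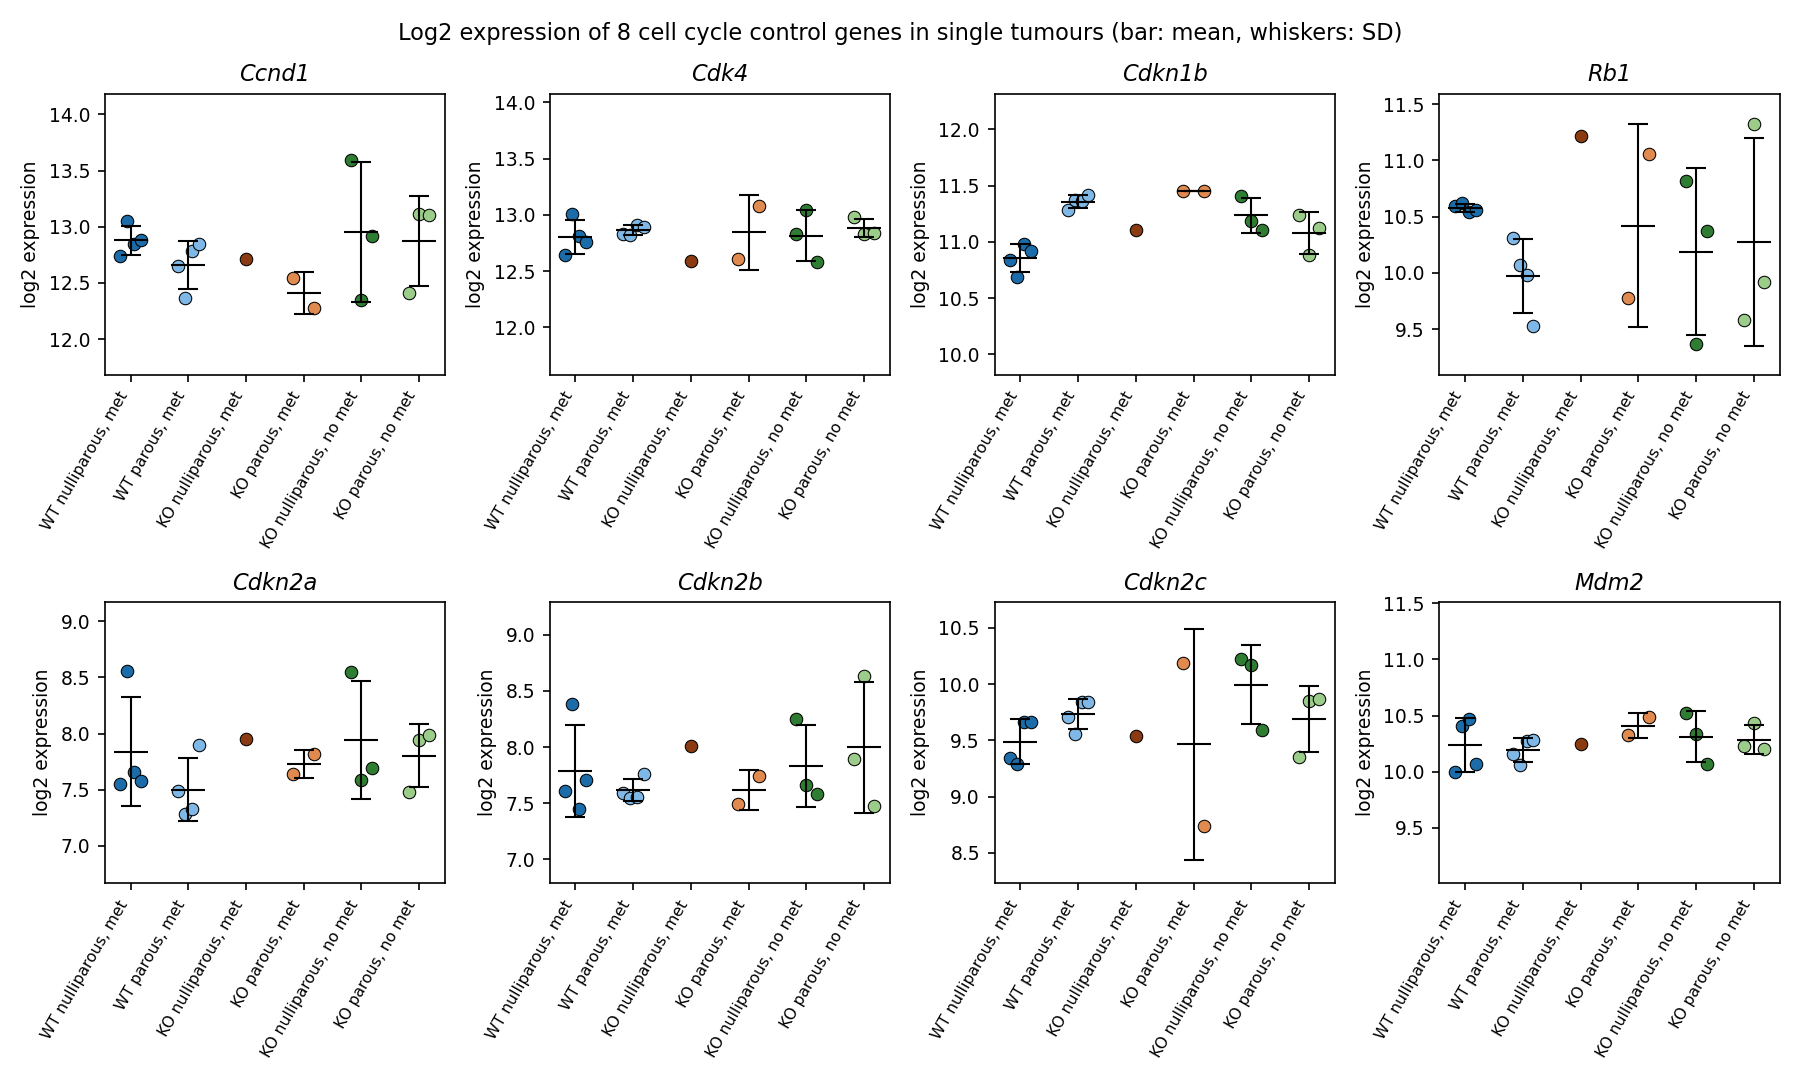
Log2 expression of the 8 measured genes (vertical axis, 2.5 log2 units in every panel) in single tumours of the 6 groups (horizontal axis), 1 point per sample, with the mean and SD as bars where a group has more than 1 sample. Cdkn1b separates parous from nulliparous WT tumours, and Rb1 has the widest scatter, from 9.37 to 11.32.

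Ccnd1, encoding cyclin D1, ranged from 12.28 to 13.59 over the 17 samples, a 2.47-fold span. It read 12.65, 12.37, 12.78 and 12.85 in the WT parous tumours and 12.74, 13.05, 12.85 and 12.88 in the WT nulliparous ones. In KO tumours without metastasis it read 12.41, 13.11 and 13.10 in the parous and 13.59, 12.35 and 12.92 in the nulliparous group. The KO nulliparous group alone held the highest and one of the lowest values. The KO samples with metastasis were 12.54 and 12.28 (parous) and 12.71 (nulliparous). The WT parity difference was -0.22 (SE 0.23) and the metastasis difference in parous KO was -0.46 (SE 0.29, 95% interval -1.09 to 0.17), neither passing. Ccnd2, another D-type cyclin, was -0.42 (SE 0.21) in the WT parity comparison, and Ccnd3 -0.19 (SE 0.10), without passing. With the non-epithelial covariate the Ccnd2 difference was -0.01.

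Cdk4, the catalytic partner of cyclin D1, was among the steadiest of the 8, between 12.58 and 13.08, a 1.41-fold span. Its group means lay between 12.59 (the single KO nulliparous tumour with metastasis) and 12.88 ± 0.09 (SD, n = 3, KO parous without metastasis). The 6 estimates ran from -0.09 (additive genotype) to 0.06 (either parity contrast), and all 6 intervals spanned 0. Cdk6, its paralogue, was 0.27 (SE 0.29) in the WT parity comparison.

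Rb1, the retinoblastoma protein, had the widest range of the 8 genes, from 9.37 to 11.32, a 3.87-fold span, and its SD of 0.59 exceeded that of 95.5% of genes (median SD 0.17). In the WT tumours it read 10.31, 10.07, 9.98 and 9.53 in parous and 10.59, 10.62, 10.54 and 10.56 in nulliparous mice. Each parous WT tumour lay below each nulliparous one, yet the difference of -0.61 (SE 0.39, 95% interval -1.45 to 0.23) did not pass (limma adjusted p = 0.497). That SE draws on the spread of all groups, KO included. With only the groups of the contrast the SE was 0.15 and the limma adjusted p 0.0602, still above the threshold. With the non-epithelial covariate the difference was -0.24. In KO tumours the values were 9.78 and 11.06 (parous with metastasis), 11.22 (nulliparous with metastasis), 9.58, 11.32 and 9.92 (parous without) and 10.82, 9.37 and 10.37 (nulliparous without). The spread within the KO groups covered the whole range of the gene. The nearest 20 expressed genes on chromosome 14 did not follow: in the tumour with the highest Rb1, 0.99 above the gene's mean, their median deviation was 0.02, and in the lowest, 0.96 below it, it was 0.03. Mir687, a microRNA gene inside the Rb1 gene in RefSeq, had a Pearson r of 0.91 with Rb1 over the 17 samples, the third highest of all genes.

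The pocket proteins related to Rb1 read as follows in the WT parity comparison. Rbl1, p107, averaged 9.64 ± 0.05 (SD, n = 4) after parity, and the nulliparous tumours averaged 9.97 ± 0.06 (SD, n = 4), without overlap (difference -0.33, SE 0.12, limma adjusted p = 0.198). Rbl2, p130, differed by -0.07 (SE 0.22).

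The p16 and Arf gene Cdkn2a, by its mean at the 45.4 percentile of all genes, was higher in 2 tumours than in the other 15 samples. It read 8.56 in WT nulliparous replicate 2 and 8.55 in KO nulliparous no-metastasis replicate 1, and between 7.28 and 7.99 in the other 15 samples. The 2 higher values were still mid-level, at the 56.1 and 55.8 percentiles of genes on their arrays. These 2 tumours were in different groups. The other 3 WT nulliparous tumours read 7.55, 7.66 and 7.58, and the 4 WT parous tumours 7.49, 7.28, 7.33 and 7.90. The WT parity difference was -0.34 (SE 0.26, 95% interval -0.89 to 0.21), and the 1 probe set gives 1 value for both products, p16 and Arf.

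Cdkn2b, the neighbouring gene that encodes p15, was high in the same 2 tumours (8.38 and 8.25) and highest in another, KO parous no-metastasis replicate 2 (8.63), where Cdkn2a was 7.94. The remaining 14 samples read 7.45 to 8.01. Its WT parity difference was -0.17 (SE 0.24), and its KO parity difference 0.17 (SE 0.28).

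Cdkn2c, encoding p18, ranged from 8.74 to 10.22. The WT parous tumours read 9.71, 9.56, 9.84 and 9.84 and the WT nulliparous tumours 9.34, 9.29, 9.66 and 9.66. These overlapped (difference 0.25, SE 0.25). The lowest value of all was the averaged KO parous sample with metastasis (8.74), whose group partner read 10.19. That sample is the mean of the 2 near-identical arrays.

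Among the other CDK inhibitors, Cdkn2d (p19) was -0.13 (SE 0.09) and Cdkn1c (p57) 0.04 (SE 0.08) in the WT parity comparison, and none of the 3 measured passed. Mdm2, which keeps p53 low, reached at most 10.52 and spanned 0.52 log2 units, or 1.44-fold, with a WT parity difference of -0.04 (SE 0.12). Its relative Mdm4 was 0.13 (SE 0.12). In parous tumours with metastasis, Mdm2 in the KO samples read 10.33 and 10.49 against 10.16, 10.06, 10.27 and 10.28 in WT, without overlap (difference 0.22, SE 0.15, limma adjusted p = 0.929). Of the 8 members, Mdm2 and Cdkn1b had groups that did not overlap in this comparison, as did 17.9% of all genes, and 0% of genes passed the test.

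**Figure D3:**
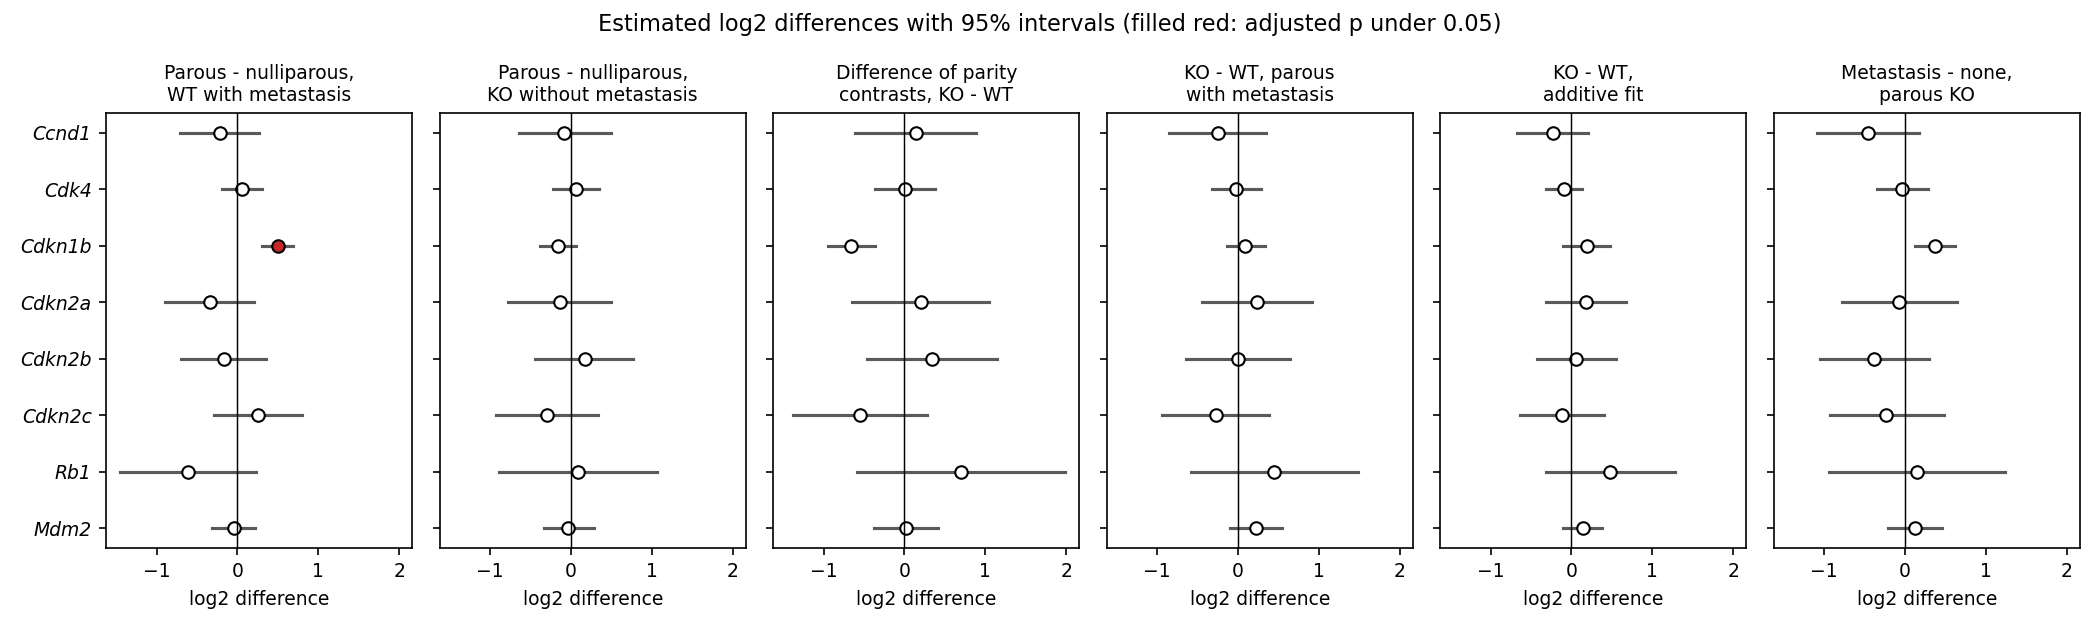
Estimated log2 differences with 95% intervals (horizontal axis) for the 8 genes (rows) in 6 comparisons (panels). The filled red point is the 1 estimate past an adjusted p of 0.05, Cdkn1b in the WT parity comparison (0.50, interval 0.31 to 0.69). Of the other intervals, those of Cdkn1b in the third and the sixth panel also lie apart from 0, and the widest are those of Rb1.

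Genotype alone passed for none of the 8 genes. In parous tumours with metastasis the KO minus WT differences ran from -0.27 (Cdkn2c, SE 0.31) to 0.45 (Rb1, SE 0.48), and Cdkn1b was 0.09 (SE 0.11). In the additive fit over all 17 samples, with parity and metastasis status as further terms, they ran from -0.23 (Ccnd1, SE 0.21) to 0.48 (Rb1, SE 0.38), and Cdkn1b was 0.19 (SE 0.13). Neither fit called any gene (0% in each, with 1142 and 885 genes at an unadjusted p under 0.05). An interval that includes 0 does not show that the genotypes were alike.

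Cdkn2a, Cdkn2b and Cdkn2c all lie on mouse chromosome 4, whose genes were lower as a whole in parous WT tumours. The median difference of 754 expressed chromosome 4 genes was -0.40. The 20 nearest expressed neighbours had medians of -0.23 around Cdkn2a (4 above 0) and -0.30 around Cdkn2b (4 above 0). The genes' own differences, -0.34 and -0.17, rested largely on WT nulliparous replicate 2, without which they were -0.10 and 0.02. Around Cdkn2c the median was -0.57 with 2 of 20 above 0, while Cdkn2c was 0.25. Its immediate neighbour 9630013D21Rik, a long noncoding RNA whose span does not overlap it, had the highest correlation with Cdkn2c of all genes (r 0.867). After subtracting each chromosome's level, the differences were 0.07 for Cdkn2a, 0.23 for Cdkn2b and 0.66 for Cdkn2c (limma adjusted p = 0.198 for the last).

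**Figure D4:**
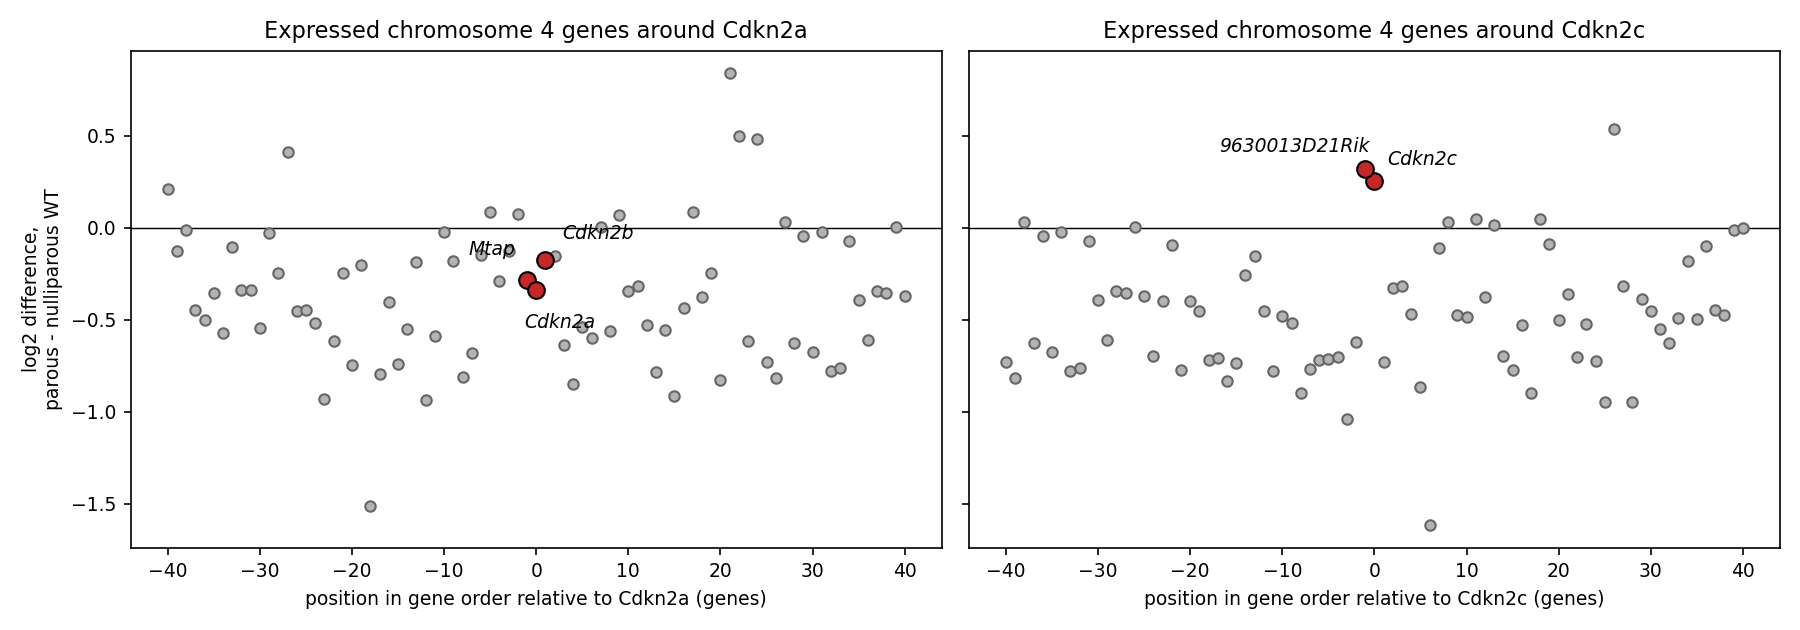
Log2 difference of parous minus nulliparous WT tumours (vertical axis) for expressed genes of chromosome 4, in gene order around Cdkn2a (left) and Cdkn2c (right; horizontal axis, number of genes away). Most genes lie below 0, Cdkn2a, Cdkn2b and Mtap among them, while Cdkn2c (0.25) and its neighbour 9630013D21Rik lie above it.

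Over the 28 pairs of the 8 genes, 1 passed a correction: Ccnd1 and Cdkn2a had a Pearson r of 0.70 over 17 samples (permutation p = 0.00155, adjusted 0.0434) and a Spearman rho of 0.61 (permutation p = 0.0118, adjusted 0.328). The rank version did not pass. Without the 2 samples farthest from the median of Ccnd1 (13.59 and 12.28), r was 0.65, and within groups it was 0.74. That trim kept WT nulliparous replicate 2, a tumour high in Cdkn2a (8.56) with Ccnd1 at 13.05. The r without both tumours high in Cdkn2a was not computed, so how far the relation rested on them is not known. Cdkn2a and Cdkn2b followed with r 0.68 (permutation p = 0.00547, adjusted 0.0766) and rho 0.45. Without the 2 samples farthest from the median of Cdkn2a (8.56 and 8.55), r was 0.43, so that relation rested partly on them. The 2 trims left out different samples, so 0.65 and 0.43 do not compare the sturdiness of the 2 pairs.

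Among all genes, the closest to Cdkn2b was Mtap (r 0.908), which lies 1 gene away with Cdkn2a between them. Of the 3 tumours high in Cdkn2b, Mtap was high in 2. It read 10.07 in KO parous no-metastasis replicate 2 and 9.54 in WT nulliparous replicate 2, against 8.32 to 8.92 elsewhere, with 8.89 in KO nulliparous no-metastasis replicate 1. The next were Mmp10 (r 0.894) and Mmp9 (r 0.878), matrix metalloproteinases. The 2 tumours high in Mtap were also the 2 samples farthest from the median of Cdkn2b. Without them r was 0.73 for Mtap, 0.67 for Mmp10 and 0.62 for Mmp9. Those 2 tumours had fibroblast marker means of 10.2 each, the highest of the 17 samples, and macrophage means of 10.08 and 9.27; the part of these cells in the relation was not tested. Mtap stood 298th for Cdkn2a, with r 0.572.

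For the other members the closest genes were Slc1a2 for Ccnd1 (r 0.922), Snrpd3 for Cdk4 (r 0.848), Iqcb1 for Cdkn1b (r 0.904), Spindoc for Cdkn2a (r 0.871), Ddias for Mdm2 (r 0.816) and Acer3 for Rb1 (r 0.922). These are descriptions over 17 samples. Without the 2 samples farthest from the member's median, r for these pairs lay between 0.69 (Cdkn2a) and 0.88 (Rb1). Of the 50 genes most like Cdk4, 12 (24%) lay on its own chromosome 10, which holds 4.73% of genes, and of the 50 most like Mdm2, also on chromosome 10, 8 did (16%). For Ccnd1 the share was 16% against 8.74% of genes on chromosome 7. The other 5 members lay near or below the share of their chromosome: Cdkn2b had 6%, and Cdkn2a and Cdkn2c 2% each, against 5.82%, Cdkn1b 4% against 5.54%, and Rb1 2% against 3.52%.

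**Figure D5:**
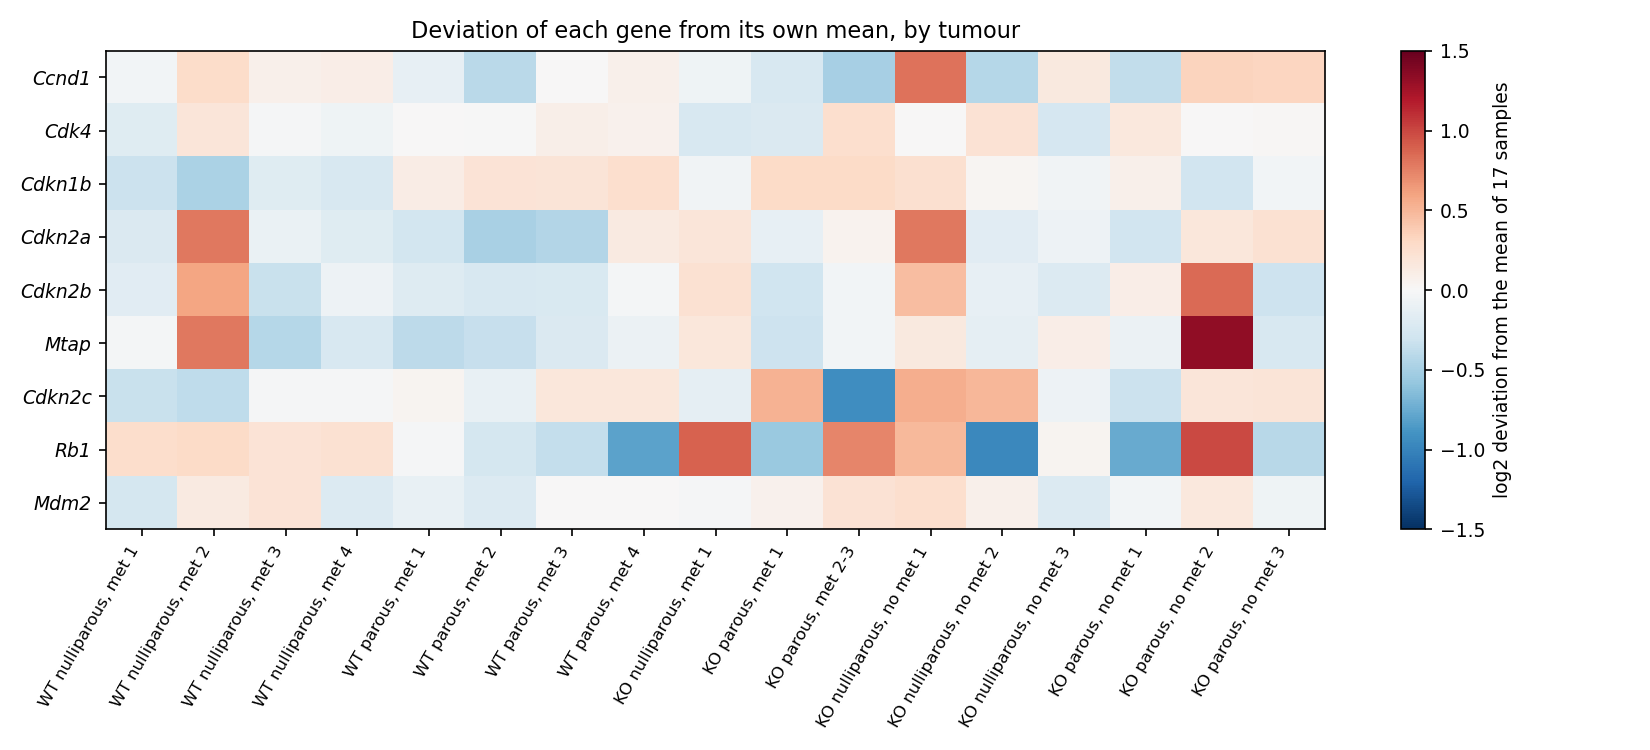
Deviation of each gene from its own mean (colour, log2 units, red above and blue below) in the 17 samples (horizontal axis) for the 8 genes and Mtap (rows). WT nulliparous replicate 2 and KO nulliparous no-metastasis replicate 1 are high in Cdkn2a (8.56 and 8.55), and KO parous no-metastasis replicate 2 is high in Cdkn2b, Mtap and Rb1.

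The rest of the pathway was given by lists. In the WT parity comparison, none of 10 D cyclin and Cdk partners, 16 pocket protein and E2F genes, 28 E2F target genes, 16 p53 regulators, 32 p53 targets or 17 genes of p27 and cyclin D1 turnover passed, against 2.4% of all genes. Their medians were -0.02, -0.09, -0.02, 0.03, -0.05 and 0.17, against -0.005 for all genes. Of the turnover genes 14 of 17 were above 0, among them Cks1b, the cofactor of the p27 ubiquitin ligase (10.59 ± 0.28 and 10.09 ± 0.18, SD, n = 4 each; difference 0.51, SE 0.14, limma adjusted p = 0.0824), and Gsk3b, which phosphorylates cyclin D1 for degradation (0.23, SE 0.06, adjusted p = 0.0795). The DNA damage gene Gadd45a, a p53 target, was 0.65 (SE 0.18, adjusted p = 0.0803), and the proliferation marker Mki67 0.05 (SE 0.15).

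Of 21 regulators of the Cdkn2a locus, Pcgf2 alone passed in the WT parity comparison, to be read against 2.4% of all genes. This Polycomb group protein averaged 8.95 ± 0.17 (SD, n = 4) in the parous WT group, and 8.44 ± 0.18 (SD, n = 4) was the nulliparous mean, a rise of 0.52 (SE 0.12, limma adjusted p = 0.0439). The call was lost with a mean-variance trend and robust spread (adjusted p = 0.0565), with the replicate block (0.0781) and with the non-epithelial covariate (difference 0.29, adjusted p = 0.477). It was also lost without any one of WT parous replicates 1, 3 and 4, WT nulliparous replicates 1, 2 and 4, KO parous no-metastasis replicates 1 and 3, and KO nulliparous no-metastasis replicate 2, with adjusted p between 0.0513 and 0.133.

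In the 5 other contrasts no member of these lists passed, as no gene did. In the difference of the parity contrasts the smallest p of the lists belonged to Tfdp2, an E2F partner (-0.51, SE 0.12, limma adjusted p = 0.277), and Pcgf2 was -0.48 (SE 0.19). In the additive genotype fit Hipk2, a p53 kinase, was -0.58 (SE 0.17, adjusted p = 0.95). In parous KO tumours with against without metastasis, Rrm2, which makes deoxynucleotides, was -0.74 (SE 0.26), with -0.40 when KO parous metastasis replicate 1 was left out and -1.09 without the averaged sample. The 28 E2F target genes averaged 9.47 and 10.02 in the 2 samples with metastasis and 10.2, 9.95 and 9.74 in the 3 without. The groups overlapped, and none of these genes passed. In this comparison 25 of the 28 lay below 0 and 3 above (median -0.18, against -0.03 for all genes). In the additive genotype fit 24 lay below 0 and 4 above (median -0.11, against -0.03).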

How the data were processed

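The authors deposited log2 values for 35556 probe sets and 18 arrays, made by RMA in oligo per the submitters' processing notes. Their versions and the genome build are not given in the sources used here. Quantile normalization in RMA puts all arrays on a common distribution, so a shift of total RNA would not be seen. By the platform annotation 21789 probe sets name 1 gene, 1621 several and 12146 none. Symbols were taken from RefSeq where the gene identifier matched (19855 of 19938 genes) and from the annotation otherwise. Of the 19938 genes, 19841 were placed in RefSeq gene order. The members and lists were chosen with earlier results of these data known.

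All genes were fitted with limma 3.58.1 in R 4.3.3 on 6 group means (genotype, parity and metastasis terms in the additive fit), 2-sided, with Benjamini-Hochberg adjustment over all genes at 0.05 and no filter on dim genes. The script was tested on simulated data. Expressed neighbours left out the dimmest 40% of genes. Correlations used 100000 permutations over the 28 pairs that 8 genes allow. Named genes were the members, fixed relatives, passing list genes or else the 2 with the smallest p, of which some are printed, and the genes most alike to each member. Lists in the KO parity comparison and the parous genotype comparison are given by counts only. Replicates are labelled as biological. Alternatives covered array averaging, renormalization, centring, probe sets, a dim filter, the spread model, weights, the block, covariates, chromosome level and leaving out each sample. Precision is limited by the number of arrays.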

Additional observations from a re-analysis of the deposited data

Results flagged for a closer look

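Cdkn2a in WT nulliparous replicate 2 read 8.56, against 7.55 to 7.66 in the other 3 tumours of its group. Its gap to the nearest of them was 0.89 of the group's whole range, above Dixon's 95% critical value for 4 samples. The check covered 16 groups (8 genes in 2 groups of 4), and chance marks about 1 in 20 such groups.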

How the results depend on the processing

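Of the values of the 8 members under the alternatives, 1598 kept their side of the threshold, 5 no longer passed (all Cdkn1b in the WT parity comparison), 4 newly passed (all Cdkn1b in the F test) and 1 reversed. That reversal was Cdkn2a in the WT parity comparison, at 0.07 with the chromosome level subtracted. The same setting gave 0.06 for E2f2 and 0.02 for Melk, both on chromosome 4 and below 0 otherwise. With the non-epithelial covariate Mdm4 was -0.03 in the WT parity comparison, and Cdkn3 and Cdk1 were 0.04 and 0.08 in the difference of the parity contrasts. The cause was not tested. Among the 1598, 70 changed sign, in 24 combinations of member and comparison whose reported value lay within 1 SE of 0.

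The 478 genes called for parity in WT became 741 with every probe set tested, 878 with only the groups of the contrast, 1718 with array weights, 212 with the replicate block and 28 with the non-epithelial covariate, and 57 to 770 without single replicates. The lowest was without WT nulliparous replicate 4 and the highest without KO parous no-metastasis replicate 2. The 87 genes of the F test became 200 with 18 arrays kept apart, 176 with every probe set, 50 with the dimmest 40% left out, 731 with array weights, 0 with the replicate block, 15 with the covariate, 54 with the chromosome level subtracted, and 21 to 204 without single replicates. Leaving out single replicates called 0 to 2 genes for parity in KO, 0 to 8 for the difference of the contrasts, 0 to 17 for genotype in parous tumours with metastasis and 0 to 5 for metastasis in parous KO.

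Samples with the same replicate number were on median no more alike than others. Deviations from the group means correlated with a median of 0.01 over 27 pairs with the same number (-0.36 to 0.42). Over 74 pairs with different numbers the median was 0.01 (-0.42 to 0.51). Such medians, from deviations within small groups, cannot exclude that some samples were paired. With the block, Cdkn1b in the WT parity comparison was 0.50 with a limma adjusted p of 0.0395.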
